A study of Saccharomyces cerevisiae with 7 samples.

Results

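The comparison is of budding yeast cells without TUP1 with wild-type cells, 2 arrays against 3 of the 7 arrays in the series. Samples were chosen by their titles, and 5449 genes of Saccharomyces cerevisiae were tested. The groups are the tup1 deletion (2 arrays), the ssn6 deletion (2 arrays), which serves here for the shared estimate of spread and for one direct comparison, and wild type (3 arrays). All are in BY4742, a haploid laboratory strain of the alpha mating type. Its his3, leu2, lys2 and ura3 mutations are shared by every group. The cultures were 200 mL of YEP, a rich medium, with 2% glucose, stopped at an OD600 of 0.8. Total RNA was labelled with biotin and hybridised to a one-colour Affymetrix array, and each gene has a log2 level on every array. The labels do not say whether replicates were separate cultures or clones, so a p-value reflects only how far these arrays differ from each other, and that spread may be technical.

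Tup1 does not bind DNA by itself. With Ssn6, the product of CYC8, it forms a corepressor that sequence-specific repressors place at their target promoters, among them alpha2 with Mcm1 at a-specific genes, Mig1 at glucose-repressed genes, Rox1 at hypoxic genes and Rfx1 at genes of the DNA damage response. In alpha cells the alpha1 protein, together with Mcm1, activates a separate set of alpha-specific genes, those for alpha-factor, its surface agglutinin and the receptor for a-factor.

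The median log2 level of the genes lay between 10.95 and 11.06 on the 7 arrays, and background, the 95th percentile of 1746 fission yeast probe sets, lay between 5.50 and 5.67. Between 36 and 70 genes per array fell under that floor. Differences between the tup1 arrays had a standard deviation over genes of 0.41, and those between pairs of wild-type arrays 0.37 to 0.50. The ssn6 arrays lay closer together, at 0.20, and they enter the shared estimate of spread behind the p-values. The distance from wild type was 0.90 to 0.95 for tup1 replicate 1 and 0.77 to 0.80 for tup1 replicate 2. For actin, the 3' minus the 5' probe set gave 0.39 and 0.56 on the tup1 arrays and 0.32, 2.06 and 0.30 on the wild-type arrays, so wild-type replicate 2 was unlike the others. The number of arrays limits the precision of every value.

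TUP1 (YCR084C, chromosome III) was low where the labels place the deletion. Its log2 levels were 4.69 and 5.07 in tup1, 11.81 and 11.90 in ssn6, and 12.50, 11.56 and 12.19 in wild type. Both tup1 values lay under the floor, so TUP1 was at least 92.7-fold lower in tup1 than in wild type (limma adjusted p = 9.61e-06). The sources used here do not say whether the probe set covers deleted sequence. CYC8, the partner gene, read 11.56 and 11.43 in tup1 and 11.22, 11.32 and 11.24 in wild type, a difference of 0.24 ± 0.16 (SE) that did not pass (adjusted p = 0.327). None of the strain's marker genes HIS3, LEU2, LYS2 and URA3 passed the test.

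In tup1 688 genes were lower than in wild type, 12.6% of those tested, and 567 were higher, or 10.4%. These calls were made at an adjusted p of 0.05 (limma with Benjamini-Hochberg adjustment). The rises reached further. Among called genes 326 rose and 282 fell at least 2-fold, 109 rose and 26 fell at least 4-fold, and 24 rose and 2 fell at least 16-fold. The falls had a median log2 change of −0.88, against 1.13 for the rises and −0.08 for all genes. In wild type the median log2 level was 10.21 for genes that rose, 11.15 for those that fell and 11.00 for all. An unadjusted p of 0.05 was passed by 2091 genes.

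The larger number of falls was not stable. Without tup1 replicate 1 the counts were 197 lower and 230 higher, and without tup1 replicate 2 they were 770 lower and 461 higher. Without wild-type replicate 1 they were 385 lower and 440 higher. Leaving out either ssn6 array, which enters only the error, gave 377 lower and 390 higher. The plot of counts by setting shows that rises also outnumbered falls when only the genotypes compared were fitted, with a block for the replicate number and at an adjusted p of 0.01.

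**Figure D1:**
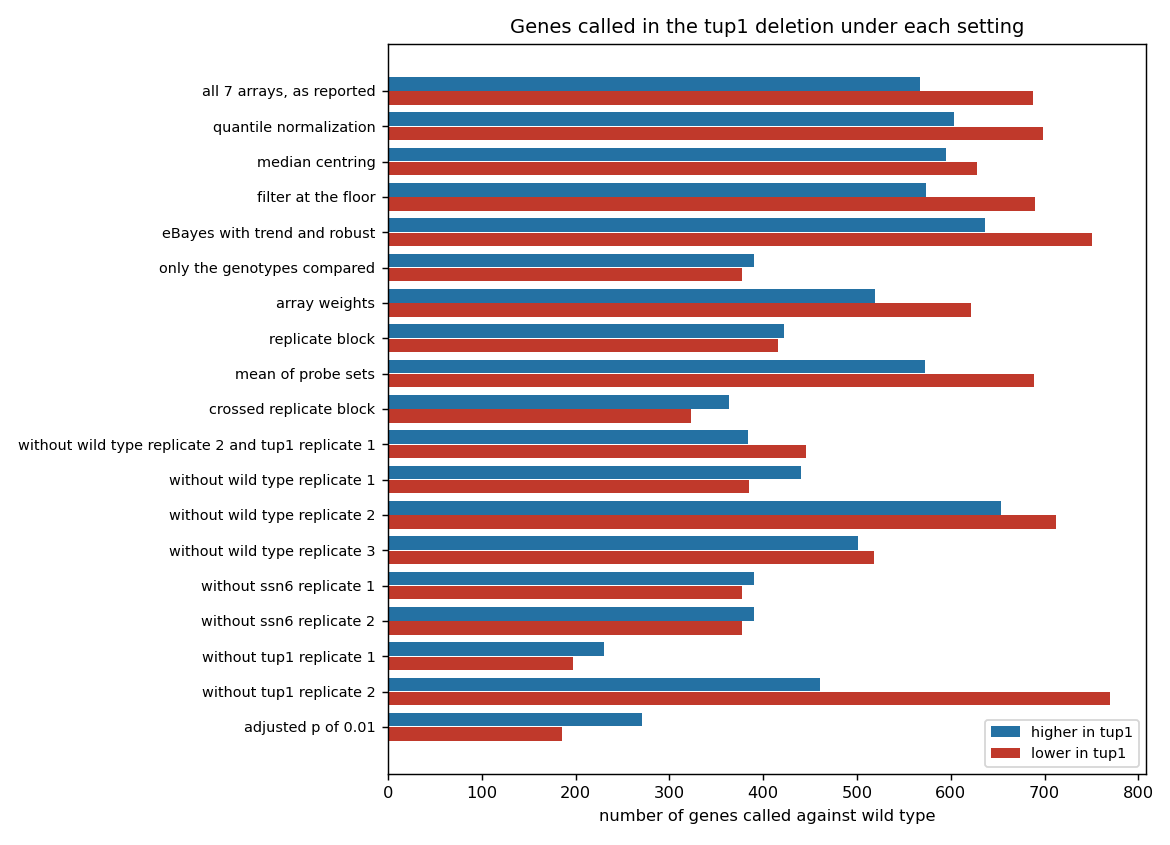
Number of genes called higher (blue) and lower (red) in the tup1 deletion against wild type, for the fit with all 7 arrays and for each alternative. The 688 falls and 567 rises of the uppermost pair become 197 and 230 without tup1 replicate 1, and 770 and 461 without tup1 replicate 2.

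Both tup1 arrays of every called gene lay outside the range of the 3 wild-type arrays. This alone is common, since both arrays lay below all wild-type arrays for 30% of the genes tested and above them for 22.0%. The falls were also unequal between the arrays. Their median change was −1.01 on tup1 replicate 1 and −0.73 on replicate 2, and 512 of the 688 fell further on replicate 1. A 2-fold fall was reached by 347 on replicate 1 and 159 on replicate 2. On each of the 2 arrays, 133 genes (2.44% of those tested) fell and 279 genes (5.12%) rose at least 2-fold. The arrays differed by over 1 log2 unit for 73 falls, 72 of them lower on replicate 1, and for 3 rises.

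A stricter set holds the genes called with all arrays and again with either tup1 array alone, taking the remaining array to be as variable as those of the other genotypes. It held 177 falls (3.25% of genes tested), which is 25.7% of the falls, with a median change of −1.25. It held 224 rises (4.11%), 39.5% of the rises, with a median of 1.90. Below, a gene is said to hold with either array when it belongs to this set. The gene lists used from here on were drawn up with earlier results of these data known, so the direction of a list is not independent evidence, and a single rise or fall in a list was often lost when 1 array was left out.

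**Figure D2:**
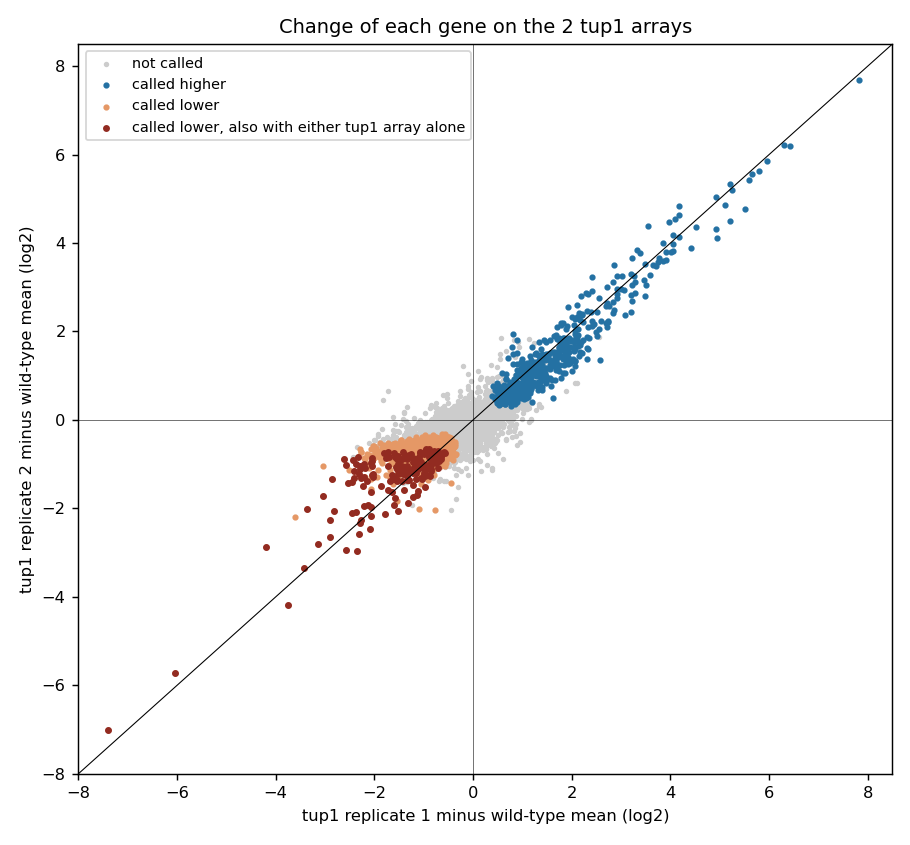
Log2 change from the wild-type mean of each of 5449 genes on tup1 replicate 1 (x axis) and replicate 2 (y axis), with the line of equal change. Of the 688 falls, 512 lie above the line of equal change, and the 177 falls called with either array alone are dark red.

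An alpha-factor gene had the largest fall after TUP1, and all 5 listed genes of the cells' own mating type fell. The alpha-factor gene MF(ALPHA)2 (YGL089C, chromosome VII) read 6.76 and 7.07 in tup1 and 12.77, 12.83 and 12.79 in wild type, a fall of 58.8-fold (log2 −5.88 ± 0.14, adjusted p = 1.68e-06). The arrays within each genotype lay close together and the groups did not overlap. STE3 (YKL178C), the receptor for a-factor, read 9.39 and 9.65 in tup1 and 12.41, 12.17 and 12.31 in wild type (−2.77 ± 0.14, adjusted p = 3.97e-05). MF(ALPHA)1 (YPL187W), the major alpha-factor gene, read 9.49 and 10.83 in tup1 and 12.84, 12.52 and 13.18 in wild type (−2.69 ± 0.38, adjusted p = 0.00374). Its tup1 arrays differed by over 1 unit, yet both lay below every wild-type array. SAG1 (YJR004C), which encodes alpha-agglutinin, read 10.48 and 9.86 in tup1 and 12.99, 12.61 and 12.91 in wild type (−2.66 ± 0.21, adjusted p = 0.00029). These 4 hold with either array. The last of the 5 listed alpha-specific genes, AFB1, for a barrier protein against a-factor, fell by 0.63 ± 0.19 (adjusted p = 0.0496), and without wild-type replicate 1 it did not pass (adjusted p = 0.117), nor without wild-type replicate 3 (0.107), either ssn6 array (0.095), tup1 replicate 1 (0.245) or tup1 replicate 2 (0.0829).

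Some genes of the mating response fell with them. Of 17 genes of pheromone signalling 5 fell (29.4%) and 1 rose, with a median of −0.14. SST2 (YLR452C), which switches off the pheromone-activated G protein, read 8.13 and 7.89 in tup1 and 10.67, 10.26 and 10.43 in wild type (−2.45 ± 0.17, adjusted p = 0.000133). STE12, the transcription factor of the pathway, fell by 1.07 ± 0.19 (adjusted p = 0.00831), and GPA1, the G protein alpha subunit, read 10.26 and 10.45 in tup1 and 11.23, 11.39 and 11.44 in wild type (adjusted p = 0.0032). These 3 hold with either array. Of 20 genes of cell fusion and agglutination 5 fell and 1 rose, with a median of −0.30. Over all genes tested 12.6% fell and 10.4% rose. FUS1 (YCL027W), a membrane protein needed for cell fusion, read 8.67 and 8.64 in tup1 and 10.78, 11.41 and 10.70 in wild type (−2.31 ± 0.22, adjusted p = 0.000611). The FUS1 values do not overlap, and the tup1 pair was closer together than the wild-type arrays. AGA1, the anchor subunit of a-agglutinin, fell by 1.36 ± 0.18 (adjusted p = 0.00302). FUS1 and AGA1 hold with either array and the other 3 fusion falls do not, the count being 2 without tup1 replicate 1, 4 without tup1 replicate 2, and 3 without wild-type replicate 2 or either ssn6 array. The signalling count was 3 without tup1 replicate 1.

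The a-specific genes, those of the opposite mating type, all rose, 7 of 7 with a median of 2.67, against 10.4% of all genes. MFA2, an a-factor gene, read 11.15 and 11.65 in tup1 and 6.94, 7.49 and 7.07 in wild type (4.23 ± 0.22, adjusted p = 4.26e-05). AGA2, the binding subunit of a-agglutinin, rose by 4.13 ± 0.19 (adjusted p = 2.3e-05) and the alpha-factor receptor gene STE2 by 2.67 ± 0.18 (adjusted p = 0.000133). Of the 7, 5 hold with either array, and STE6, the a-factor exporter, at 0.99 ± 0.20 (adjusted p = 0.0149), does not.

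**Figure D3:**
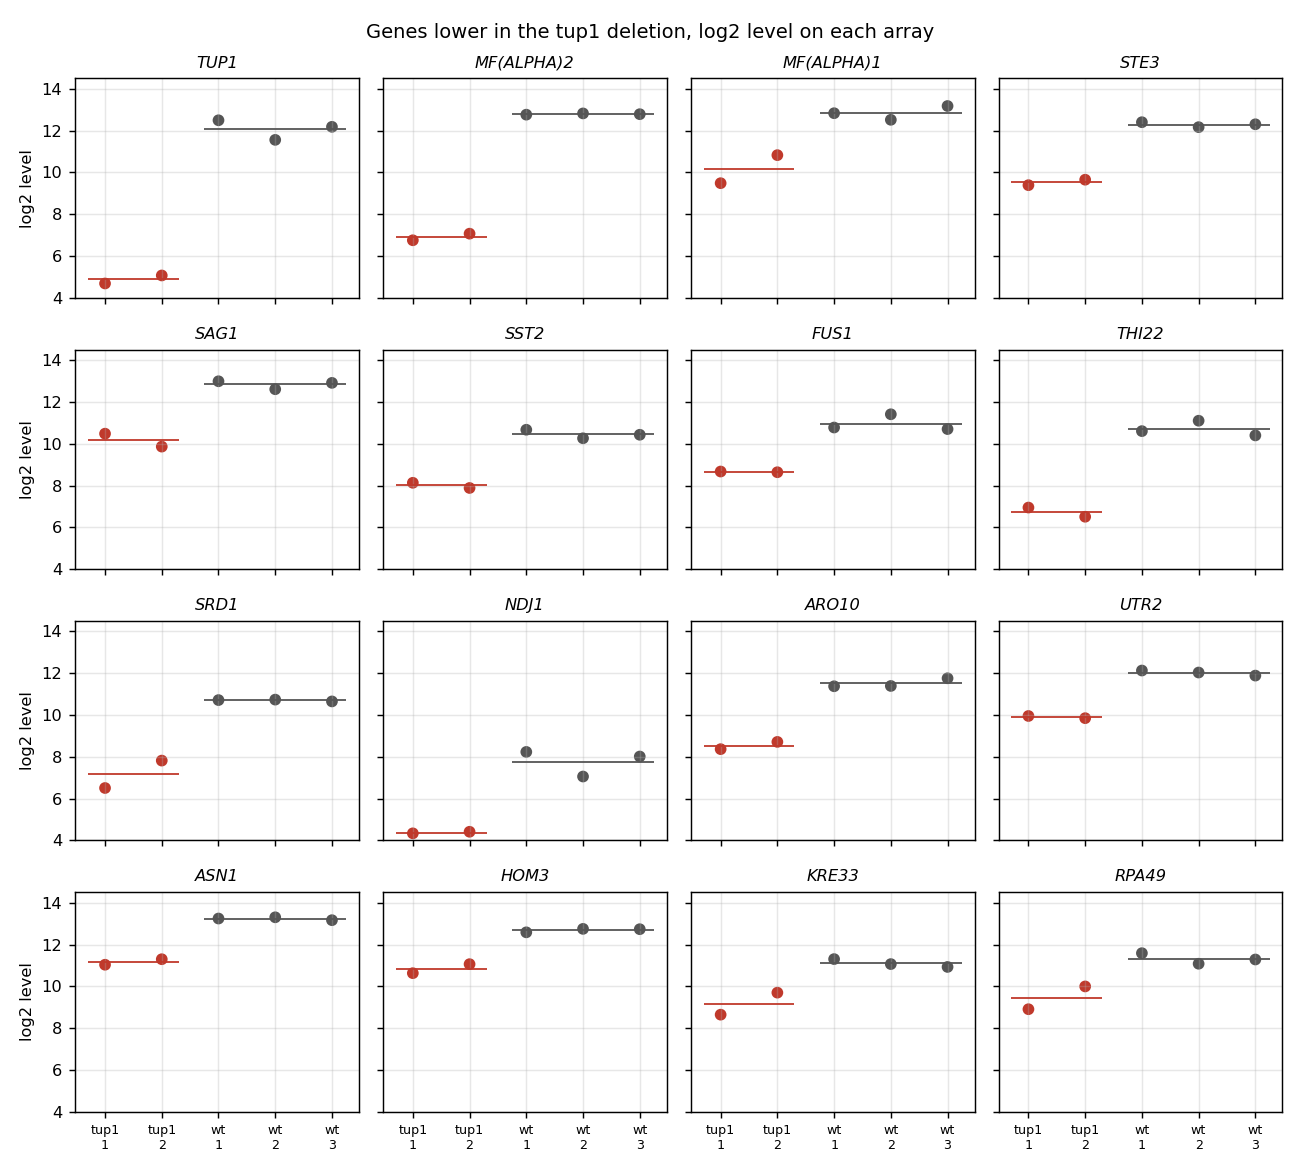
Log2 level on each of 2 tup1 arrays (red, left) and 3 wild-type arrays (grey, right) for 16 genes called lower in tup1, with group means as lines. In all 16 genes both tup1 points lie below every wild-type point, for example at 4.69 and 5.07 for TUP1 and at 11.03 and 11.30 for ASN1.

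Other large falls were scattered over functions. THI22 (YPR121W), a relative of thiamine synthesis kinases, read 6.95 and 6.51 in tup1, 12.35 and 12.42 in ssn6, and 10.61, 11.10 and 10.40 in wild type. This was a fall of 15.7-fold against wild type (−3.97 ± 0.23, adjusted p = 7.16e-05), while the ssn6 arrays lay above wild type. SRD1 (YCR018C), linked to rRNA processing, read 6.51 and 7.82 in tup1 and 10.72, 10.74 and 10.65 in wild type (−3.54 ± 0.34, adjusted p = 0.000614). Although its tup1 arrays were over 1 unit apart, SRD1 holds with either array. NDJ1 (YOL104C), a meiotic telomere protein gene, read 4.34 and 4.42 in tup1, both under the floor, and 8.24, 7.06 and 8.02 in wild type, at least 4.67-fold lower (adjusted p = 0.000607). ARO10 (YDR380W), a decarboxylase of aromatic amino acid breakdown, read 8.37 and 8.71 in tup1, 8.29 and 7.53 in ssn6, and 11.38, 11.39 and 11.76 in wild type (−2.97 ± 0.25, adjusted p = 0.000365), so both deletions were low. Its pathway neighbour ARO9, an aminotransferase gene, fell by 1.12 ± 0.19 (adjusted p = 0.00796).

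UTR2 (YEL040W), a chitin-linking enzyme of the cell wall, read 9.95 and 9.85 in tup1, 12.62 and 12.74 in ssn6, and 12.13, 12.03 and 11.89 in wild type (−2.11 ± 0.14, adjusted p = 9.97e-05). Like THI22 it was low in tup1 and above wild type in ssn6. RFU1, an inhibitor of ubiquitin recycling, fell by 2.58 ± 0.23 (adjusted p = 0.000422), ATG41, an autophagy gene, by 2.27 ± 0.16 (adjusted p = 0.000166), and HMS2, a gene similar to heat shock factors, by 2.02 ± 0.16 (adjusted p = 0.000264). ZPR1, which helps to fold the translation elongation factor eEF1A, fell by 2.01 ± 0.17 (adjusted p = 0.000368), and EFM6, which methylates that factor, by 2.38 ± 0.35 (adjusted p = 0.00453). These 5 hold with either array. The G1 cyclin gene CLN2 fell by 1.12 ± 0.17 (adjusted p = 0.00471) and holds too.

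Several of the largest falls were genes of Ty retrotransposons, for which no list was drawn up and no share is given. YBL100W-A read 9.90 and 10.19 in tup1, 9.81 and 10.21 in ssn6, and 12.19, 12.25 and 12.36 in wild type (−2.22 ± 0.17, adjusted p = 0.000238). YER138W-A read 10.15 and 10.51 in tup1 and 12.41, 12.68 and 12.70 in wild type (−2.27 ± 0.22, adjusted p = 0.000702). YBL005W-A, YAR009C and YAR010C fell by 2.76 ± 0.43, 2.44 ± 0.28 and 1.95 ± 0.26 (adjusted p = 0.00565, 0.00135 and 0.00312). The call of YDR261C-D (−2.90 ± 0.49, adjusted p = 0.00737) was lost without tup1 replicate 1 (adjusted p = 0.0574). Ty elements are present in many near-identical copies, so these probe sets cannot be assigned to single elements and are not independent of each other.

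Ribosome biogenesis was the largest falling group, and it was the one in which the tup1 arrays differed most. Of 69 measured genes for making and processing rRNA, 42 fell (60.9%, against 12.6% of all genes) and 0 rose, with a median of −1.11. The median was −1.61 on tup1 replicate 1 and −0.59 on replicate 2. The mean log2 level of the list was 9.59 and 10.60 in tup1 and 11.34, 11.36 and 11.02 in wild type, so replicate 1 lay about 1 unit under replicate 2 and both lay under wild type. Both tup1 arrays were below all wild-type arrays for 63 of the 69. The count of falls was 8 without tup1 replicate 1, 67 without tup1 replicate 2, 11, 23 and 25 without wild-type replicates 1, 2 and 3, and 21 without either ssn6 array. The mean of the 17 control probe sets for rRNA was 6.72 and 9.34 in tup1, 8.73 and 7.47 in ssn6, and 11.06, 8.41 and 12.42 in wild type, and their part in these falls was not tested.

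KRE33 (YNL132W), which acetylates rRNA, read 8.64 and 9.70 in tup1 and 11.30, 11.06 and 10.93 in wild type (−1.93 ± 0.29, adjusted p = 0.00511). UTP6 (YDR449C), a subunit of the complex that processes the small-subunit rRNA, read 7.40 and 8.49 in tup1 and 9.92, 10.23 and 9.63 in wild type (−1.98 ± 0.32, adjusted p = 0.00672). Both are among the 8 that hold with either array, and in both replicate 1 was the lower by more than 1 unit. ESF1, another rRNA processing gene, read 6.98 and 8.98 in tup1 and 9.65, 10.51 and 9.87 in wild type (−2.03 ± 0.56, adjusted p = 0.0394). Its call was lost when any array other than tup1 replicate 2 was left out.

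Of 26 subunits of RNA polymerases I and III, which transcribe rRNA and tRNA genes, 12 fell (46.2%, against 12.6% of all genes) and 0 rose. The medians were −1.20 on replicate 1 and −0.41 on replicate 2. RPA49 (YNL248C), a polymerase I subunit, read 8.90 and 9.99 in tup1 and 11.59, 11.08 and 11.28 in wild type (−1.87 ± 0.31, adjusted p = 0.00731). RPA43 fell by 1.70 ± 0.32 (adjusted p = 0.0114) and RPC19, shared by both polymerases, by 1.22 ± 0.21 (adjusted p = 0.00774). These are the 3 that hold with either array. The count was 3 without tup1 replicate 1, 7 and 8 without wild-type replicates 1 and 3, and 17 without tup1 replicate 2.

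Ribosomal protein genes moved on 1 array. Of 127 genes 4 fell (3.15%, under the 12.6% of all genes), and the median was −0.54 on tup1 replicate 1 and −0.02 on replicate 2. Without tup1 replicate 2 the number of falls was 61, and without replicate 1 it was 0. It was 2 and 1 without wild-type replicates 1 and 3, and 1 without either ssn6 array. Ribosomal proteins of the mitochondrion gave 0 falls and 1 rise among 72, RSM7, which rose by 0.83 ± 0.13 (adjusted p = 0.00533).

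**Figure D4:**
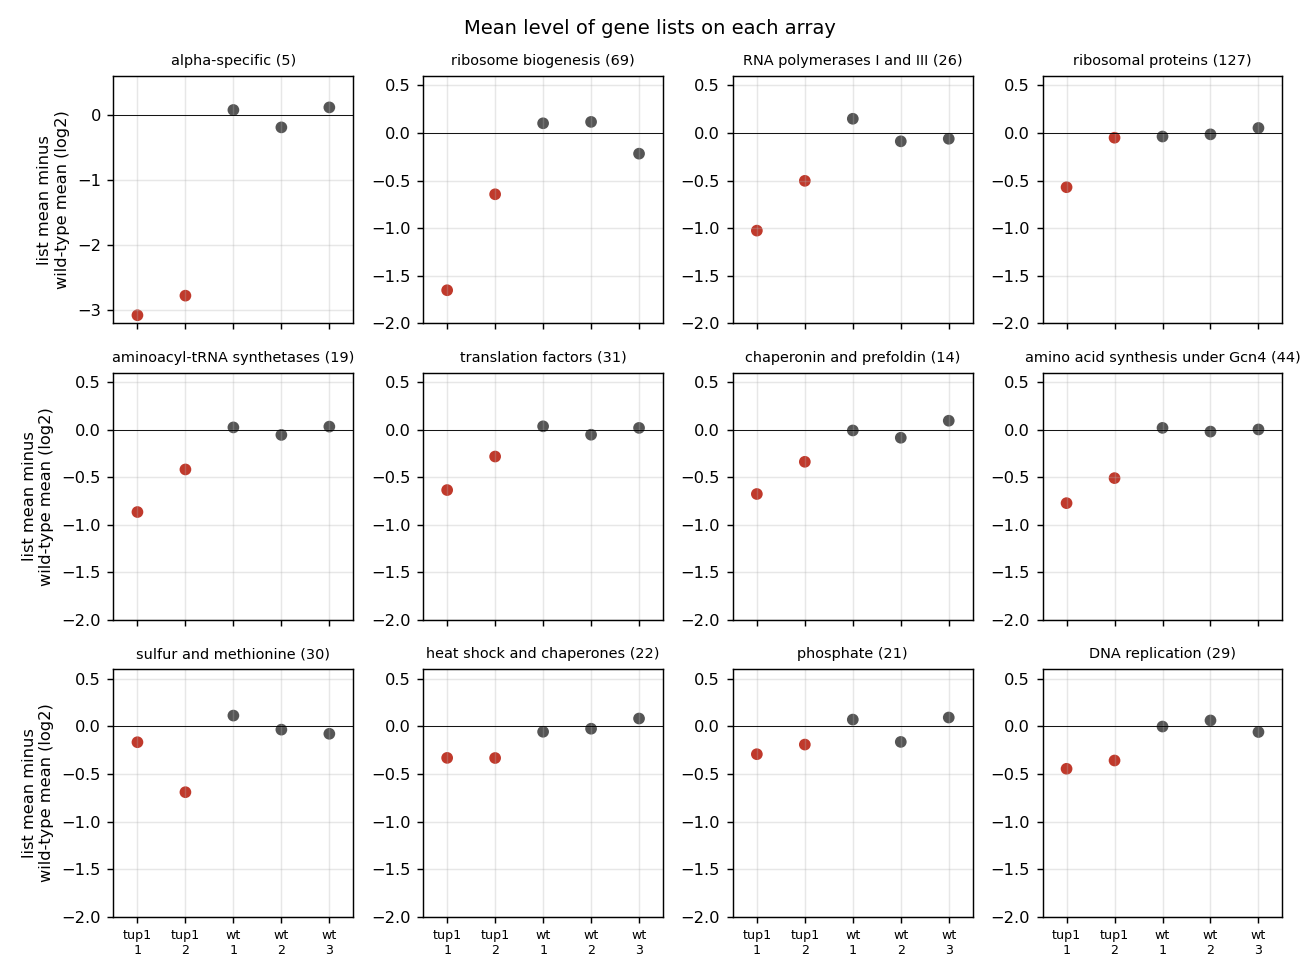
Mean log2 level of 12 gene lists on each of 2 tup1 arrays (red, left) and 3 wild-type arrays (grey, right), minus the mean of the wild-type arrays, with the number of genes in brackets. The ribosome biogenesis points lie 1.65 and 0.64 below the wild-type mean and the ribosomal protein points 0.57 and 0.05 below it, while the alpha-specific panel has a longer axis.

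Translation genes fell in part. Of 19 aminoacyl-tRNA synthetases, which charge tRNAs, 9 fell (47.4%, against 12.6% of all genes) and 0 rose. Of 31 translation factors 9 fell (29.0%, against the same 12.6%) and 0 rose. FRS2, a subunit of phenylalanyl-tRNA synthetase, fell by 0.81 ± 0.14 (adjusted p = 0.00768). GCN3, a subunit of the exchange factor eIF2B, fell by 1.32 ± 0.13 (adjusted p = 0.000632), and TIF3, initiation factor eIF4B, by 1.07 ± 0.21 (adjusted p = 0.0122). These hold with either array. Without tup1 replicate 1 each list kept 2 falls, and without tup1 replicate 2 there were 16 and 14. Both lists had 5 falls when wild-type replicate 1 or either ssn6 array was left out, and without wild-type replicate 3 the counts were 5 and 6.

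Amino acid synthesis genes fell on both arrays. Of 44 genes of amino acid synthesis that Gcn4 activates, 21 fell (47.7%, against 12.6% of all genes) and 0 rose. The medians were −0.71 on tup1 replicate 1 and −0.43 on replicate 2. ASN1 (YPR145W), asparagine synthetase, read 11.03 and 11.30 in tup1 and 13.24, 13.30 and 13.16 in wild type (−2.07 ± 0.14, adjusted p = 0.000133). HOM3 (YER052C), the aspartate kinase that opens threonine and methionine synthesis, read 10.63 and 11.06 in tup1 and 12.58, 12.75 and 12.73 in wild type (−1.84 ± 0.16, adjusted p = 0.000408). For both, the gap to wild type was larger than the spread within either group. HIS7 of histidine synthesis fell by 1.24 ± 0.16 (adjusted p = 0.00283) and LEU9 of leucine synthesis by 1.69 ± 0.36 (adjusted p = 0.0179). Of the 21 falls 10 hold with either array, and the count was 10 without tup1 replicate 1 and 14 without wild-type replicate 1 or either ssn6 array.

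Sulfur genes fell further on replicate 2. Over 30 genes of sulfur and methionine metabolism 7 fell (23.3%, against 12.6% of all genes) and 1 rose (3.33%, against 10.4%). The medians were −0.12 on tup1 replicate 1 and −0.60 on replicate 2. MET14, adenylylsulfate kinase, read 10.16 and 9.63 in tup1, 11.59 and 11.53 in ssn6, and 11.17, 10.90 and 11.35 in wild type (−1.25 ± 0.21, adjusted p = 0.00701). MET16, the next reductase of the pathway, fell by 1.09 ± 0.15 (adjusted p = 0.00355). The methionine permease gene MUP1 read 12.30 and 10.86 in tup1 and 13.06, 12.54 and 12.32 in wild type and did not pass (adjusted p = 0.102), though it did without tup1 replicate 1 (adjusted p = 0.0274).

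Of 12 genes of pyrimidine synthesis and salvage 6 fell and 1 rose, the CTP synthase gene URA7 falling by 1.60 ± 0.32 (adjusted p = 0.0134) and the salvage gene FUR1 by 1.19 ± 0.19 (adjusted p = 0.00591). The falls numbered 3 without wild-type replicate 1 or either ssn6 array, 4 without wild-type replicate 3 and 2 without tup1 replicate 1. Of 21 purine genes 4 fell (19.0%, against 12.6% of all genes) and 2 rose (9.52%, against 10.4%), with IMD2, an IMP dehydrogenase, at 8.07 and 8.81 in tup1 and 9.94, 10.28 and 10.67 in wild type (−1.86 ± 0.29, adjusted p = 0.00556). The purine falls numbered 2 without wild-type replicate 3, 1 without tup1 replicate 1 or either ssn6 array and 8 without tup1 replicate 2. Of 29 DNA replication genes 10 fell (34.5%) and 0 rose, but 0 hold with either array. That count was 0 without tup1 replicate 1, 3 and 5 without wild-type replicates 1 and 3, and 1 without either ssn6 array.

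Chaperone genes were among the falls, with like medians on both arrays for heat shock genes and unlike ones for the chaperonin. The shares to set beside these lists are 12.6% of all genes lower and 10.4% higher. Of 22 heat shock and chaperone genes 9 fell (40.9%) and 1 rose, with medians of −0.34 and −0.35 on tup1 replicates 1 and 2, and 5 falls hold with either array. SSA4 (YER103W), a stress-inducible Hsp70, read 12.24 and 12.17 in tup1 and 13.49, 13.48 and 13.63 in wild type (−1.32 ± 0.13, adjusted p = 0.000726). BTN2, a sorting factor for misfolded proteins, fell by 1.11 ± 0.12 (adjusted p = 0.00131), and the Hsp70 gene SSA2 by 1.01 ± 0.17 (adjusted p = 0.00723). The riser was SSA3, at 1.06 ± 0.30 (adjusted p = 0.0459), a call lost when any array but tup1 replicate 2 was left out. The heat shock falls numbered 5 without tup1 replicate 1 and 6 without either ssn6 array. The cytosolic chaperonin and prefoldin, folding machines for actin and tubulin, gave 6 falls of 14 (42.9%), none of which holds with either array, with medians of −0.72 on tup1 replicate 1 and −0.27 on replicate 2. They numbered 0 without tup1 replicate 1, 2 without either ssn6 array, 3 without wild-type replicate 1 and 4 without wild-type replicate 3.

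Among 38 genes of protein translocation and glycosylation 7 fell (18.4%, against 12.6% of all genes) and 0 rose. The 3 that hold with either array were SEC63 (−1.46 ± 0.13, adjusted p = 0.00037) and SEC72 (−0.84 ± 0.12, adjusted p = 0.00419), both of the endoplasmic reticulum translocon, and ERO1 (−1.31 ± 0.16, adjusted p = 0.00196), which drives disulfide formation there, and these were the falls left without tup1 replicate 1. Of 21 phosphate genes 8 fell (38.1%) and 1 rose, and the polyphosphate gene VTC3 (−0.82 ± 0.14, adjusted p = 0.00731) alone holds with either array. The phosphate count was 1 without tup1 replicate 1, 3 and 5 without wild-type replicates 1 and 3, and 5 without either ssn6 array. The proteasome (33 genes), the vacuolar ATPase (15), mitochondrial import (27) and histone genes (9) had 0 calls in either direction with all arrays.

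**Figure D5:**
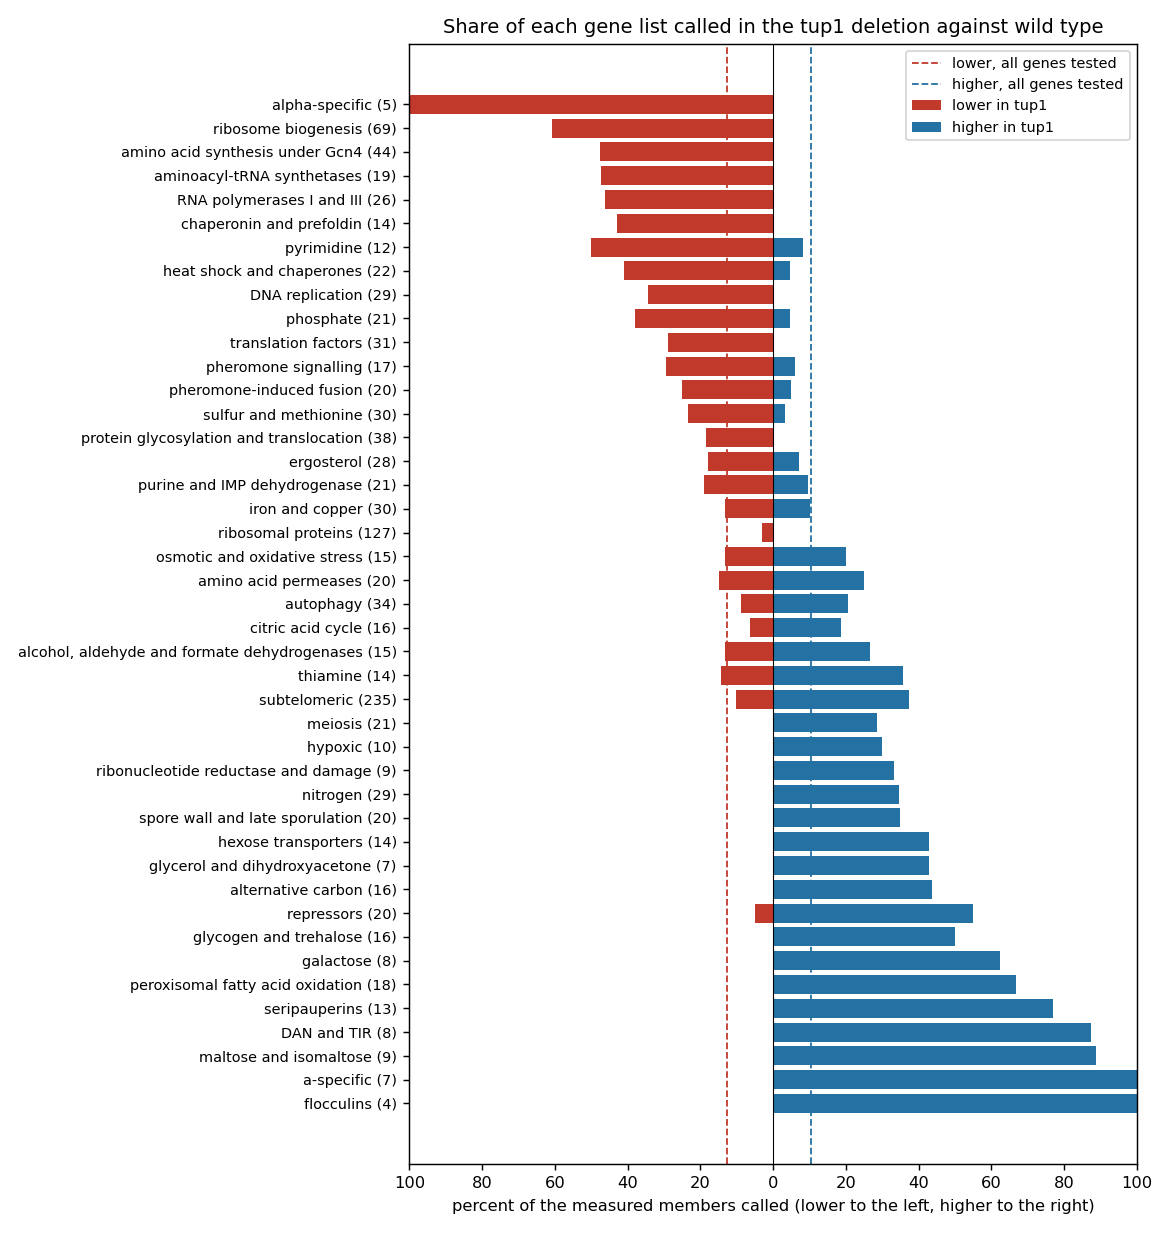
Percent of the measured members of each gene list called lower (red, to the left) or higher (blue, to the right) in the tup1 deletion against wild type, with list sizes in brackets and the shares over all 5449 genes as dashed lines (12.6% lower, 10.4% higher). Ribosome biogenesis reaches 60.9% lower, while 88.9% of the maltose and isomaltose genes are higher.

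The rises were led by sugar transport and carbon genes. For the shares below, 10.4% of all genes tested were higher. The 3 largest were hexose transporter genes, HXT13, HXT15 and HXT17. HXT15 (YDL245C) read 12.04 and 11.80 in tup1 and 5.16, 4.67 and 6.97 in wild type (6.31 ± 0.60, adjusted p = 0.000594), with its wild-type arrays spread on both sides of the floor. Of 14 hexose transporters 6 rose (42.9%), and all 6 hold with either array. Both measured polyol dehydrogenase genes rose, DSF1 for mannitol by 4.15 ± 0.15 (adjusted p = 7.1e-06) and SOR2 for sorbitol by 3.76 ± 0.24 (adjusted p = 9.97e-05). Of 9 maltose and isomaltose genes 8 rose (88.9%), IMA1 by 4.01 ± 0.14 (adjusted p = 6.84e-06), and 4 of them hold with either array, with 4 rises without tup1 replicate 1. Members of the HXT, MAL, IMA, FLO and PAU families are close in sequence, so a probe set can take signal from a relative.

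Glucose-repressed enzymes were also among the rises. PCK1 (YKR097W), of gluconeogenesis, read 13.55 and 13.39 in tup1 and 10.05, 10.28 and 10.45 in wild type (3.21 ± 0.16, adjusted p = 3.25e-05). ADH2, which oxidises ethanol, rose by 2.31 ± 0.19 (adjusted p = 0.000318) and FBP1, of gluconeogenesis, by 1.18 ± 0.20 (adjusted p = 0.00768). Of 16 genes for other carbon sources 7 rose, against 10.4% of all genes, and 4 rose without tup1 replicate 1. Of 8 galactose genes 5 rose, 3 without tup1 replicate 1, GAL7 by 1.47 ± 0.20 (adjusted p = 0.00318). Of 18 genes of peroxisomal fatty acid oxidation 12 rose (66.7%), the reductase gene SPS19 by 2.64 ± 0.19 (adjusted p = 0.000166), with 7 rises left without tup1 replicate 1. In contrast, glycolysis had 1 rise and 1 fall among 20 genes, and the respiratory chain 2 rises among 35, the largest NDE2, an external NADH dehydrogenase gene (3.28 ± 0.28, adjusted p = 0.000353). The glycolytic fall was lost without tup1 replicate 1, and the respiratory rises numbered 1 without it and 4 without wild-type replicate 2.

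Flocculins and the DAN, TIR and PAU families rose, while of 30 other genes of cell wall structure 1 rose (3.33%) and 1 fell, with a median of 0.03. All 4 measured flocculins rose and hold with either array, FLO11 (YIR019C), the adhesin of filamentous growth, by 3.43 ± 0.16 (adjusted p = 3.09e-05). The DAN and TIR group, mannoproteins that cells without oxygen put in their wall, had 7 rises among 8 genes (87.5%), DAN1 by 5.27 ± 0.17 (adjusted p = 5.14e-06). Of 13 seripauperin (PAU) genes 10 rose (76.9%), PAU24, which is also in the DAN list, by 4.99 ± 0.13 (adjusted p = 1.79e-06). PAU4 read 10.18 and 10.75 in tup1 and 9.42, 10.05 and 9.93 in wild type and did not pass (adjusted p = 0.0872). Of 10 other hypoxic genes 3 rose, against 10.4% of all genes, and 1 rose without tup1 replicate 1. Among the 3, SUT1, a regulator of sterol uptake, rose by 1.74 ± 0.19 (adjusted p = 0.00112).

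Genes of sporulation, storage and damage response rose in part. The share that rose over all genes tested was 10.4%. Dityrosine, a component of the spore wall, is made by DIT1, which rose by 5.71 ± 0.18 (adjusted p = 4.99e-06), with DIT2, which rose by 5.61 ± 0.20 (adjusted p = 7.1e-06), and 7 of 20 spore genes rose. Of 21 meiotic genes 6 rose, REC8, a meiotic cohesin, by 1.64 ± 0.14 (adjusted p = 0.000378) and IME1, the inducer of meiosis, by 1.97 ± 0.28 (adjusted p = 0.00392). The meiotic rises numbered 2 without tup1 replicate 1 and 3 without wild-type replicate 1. Of 16 glycogen and trehalose genes 8 rose and 3 without tup1 replicate 1, among them GAC1, a phosphatase subunit, at 2.10 ± 0.17 (adjusted p = 0.000331). Of 9 genes of ribonucleotide reductase and damage 3 rose, HUG1, a reductase inhibitor, by 3.45 ± 0.22 (adjusted p = 9.83e-05) and RNR3 by 2.23 ± 0.13 (adjusted p = 6.31e-05). Of 29 nitrogen genes 10 rose and 3 without tup1 replicate 1, with GDH3, a glutamate dehydrogenase, at 1.40 ± 0.16 (adjusted p = 0.00142).

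Repressors that work with the complex, and others like them, were among the rises. Of 20 such genes 11 rose (55.0%) and 1 fell, and 5 rises hold with either array. CIN5 rose by 2.27 ± 0.20 (adjusted p = 0.000378), YAP6 by 1.89 ± 0.22 (adjusted p = 0.00156) and MIG3 by 1.83 ± 0.17 (adjusted p = 0.00054). The fall was MIG2, a glucose repressor (−1.22 ± 0.28, adjusted p = 0.0213), a call lost without wild-type replicate 1 or either tup1 array. The rises numbered 5 without tup1 replicate 1 and 7 without either ssn6 array. Among the 10 outermost genes of each chromosome arm, 88 of 235 rose (37.4%) and 24 fell (10.2%), or 51 and 10 without tup1 replicate 1 and 73 and 15 without wild-type replicate 1. Over all genes tested 10.4% rose and 12.6% fell, so the share of falls among these outermost genes was not raised. Called rises lay next to another called rise in 41.8% of cases, against 18.9% for all genes, and called falls next to a fall in 28.9%, against 23.5%. Where neighbours belong to families close in sequence, their calls need not be independent.

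Set directly against the ssn6 deletion, tup1 was lower for 104 genes (1.91%) and higher for 27 (0.496%). After TUP1, the largest differences were THI22 (−5.66, adjusted p = 0.000101) and MF(ALPHA)2 (−5.32, adjusted p = 1.58e-05). MF(ALPHA)2 read 6.76 and 7.07 in tup1 and 12.20 and 12.28 in ssn6. SAG1 differed by −2.28 (adjusted p = 0.00663) and UTR2 by −2.78 (adjusted p = 0.000255). Of the seripauperins 6 of 13 were lower in tup1, PAU14 reading 10.63 and 11.25 in tup1 and 13.68 and 13.75 in ssn6 (−2.77, adjusted p = 0.00339). The fusion gene PRM1 read 8.08 and 8.05 in tup1 and 10.39 and 10.27 in ssn6 (−2.26, adjusted p = 0.0122). Besides CYC8, the genes higher in tup1 included HXT10, a hexose transporter gene, at 10.56 and 10.35 in tup1 and 9.39 and 8.94 in ssn6 (1.29, adjusted p = 0.0218), and PAI3, a proteinase inhibitor gene, at 10.52 and 11.04 in tup1 and 9.01 and 8.82 in ssn6 (1.86, adjusted p = 0.0113). The counts rested on each ssn6 array, being 11 lower and 2 higher without ssn6 replicate 1 and 4 and 1 without replicate 2. Without tup1 replicate 1 they were 25 and 5, without tup1 replicate 2 171 and 24, without wild-type replicate 1 53 and 9, and without wild-type replicate 2 166 and 91. The strains also differed in 3 reporter probe sets of 1 sequence not named here, at 13.33 to 13.89 in tup1, 4.24 to 5.08 in ssn6 and 12.57 to 13.19 in wild type, whose bearing on the comparison was not tested.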

How the data were processed

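One-colour Affymetrix arrays were read for 2 tup1 deletion, 2 ssn6 deletion and 3 wild-type samples. The deposited values are log2 probe set levels normalised by the authors, and the submitters' processing notes name RMA and limma without saying which step each did. Of 10928 probe sets, 5498 had 1 budding yeast gene by the platform annotation, 1746 were of fission yeast and 3683 had no gene. Where a gene had more than 1 probe set (47 genes) the brightest on average stood for it, which left 5449 genes, and 12 symbols were updated through a RefSeq table of assembly R64, used for names and gene order only.

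Groups follow the sample titles. A linear model with one mean per genotype was fitted to the 7 arrays by limma's lmFit and eBayes (limma 3.58.1, R 4.3.3). Benjamini-Hochberg adjustment covered every gene tested, and calls were made at 0.05. The fit had 4 residual and 3.19 prior degrees of freedom. It was tested on simulated data. The floor of each array was the 95th percentile of the fission yeast probe sets, and a gene under it on every array of a group has only a bound there, set against the floor. No gene was removed for low values. The genes named are TUP1, CYC8, the strain's markers, the 25 largest rises and 30 largest falls past the threshold with both tup1 arrays outside the wild-type range, up to 6 members of each of 60 gene lists by size of change, and the 8 largest differences of each sign from ssn6. Names beyond the largest changes were picked within this rule, with preference for calls that stood when single arrays were left out. The members and lists were chosen with earlier results of these data known. Alternatives were other normalisations, a filter at the floor, other variance settings, array weights, fewer arrays, a replicate block, other handling of probe sets and a stricter threshold.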

Additional observations from a re-analysis of the deposited data

Results flagged for a closer look

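Signal was found in probe sets that belong to no gene tested. One reporter probe set, not named here, was at least 305-fold higher in tup1 than in wild type, a bound set against the floor (measured log2 difference 9.57, limma adjusted p = 2.80e-07). It read 13.85 and 13.81 in tup1, 13.83 and 13.87 in ssn6, and 4.49, 4.17 and 4.11 in wild type, so both deletions were high and wild type lay under the floor. Among the probe sets that the annotation table gives no gene, 8 were higher in tup1 by more than 2 log2 units. The largest, 1774888_at, was higher by 3.88 ± 0.26 and 1770548_at by 2.69 ± 0.13. The probe sets 1775702_at, 1773662_at and 1779914_at were higher by 2.64 ± 0.13, 2.42 ± 0.33 and 2.41 ± 0.15. The remaining ones, 1772292_at, 1770587_at and 1777999_at, were higher by 2.38 ± 0.22, 2.12 ± 0.14 and 2.10 ± 0.19. These 8 were picked by an adjusted p under 0.05 and by size. They come from 3470 probe sets without a gene, reporters and Affymetrix controls aside, of which 39 were called higher and 21 lower.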

How the results depend on the processing

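With all arrays 688 genes were lower and 567 higher in tup1 than in wild type. The count of lower genes was 377 with only the genotypes compared, 416 with the replicate block, 446 without wild-type replicate 2 and tup1 replicate 1 together, and 185 at an adjusted p of 0.01, and ran from 197 to 770 when 1 array was left out. The count of higher genes was 271 at an adjusted p of 0.01 and ran from 230 to 654 when 1 array was left out. Between tup1 and ssn6, with 104 lower and 27 higher, the counts of lower genes were 263 with array weights, 48 with the replicate block, 65 without wild-type replicate 2 and tup1 replicate 1, and 20 at an adjusted p of 0.01, and ran from 4 to 171 when 1 array was left out. The counts of higher genes were 44 with quantile normalisation, 53 with only the genotypes compared, 149 with array weights, 10 with the replicate block, 10 without the pair of arrays and 5 at an adjusted p of 0.01, and ran from 1 to 91. The cause of these shifts was not tested, except that against wild type a lone ssn6 array adds nothing to the error and so gives the fit of the genotypes compared.

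Leaving out the pair of arrays and crossing the replicate numbers were chosen after seeing the data. Over genes, replicate 1 minus replicate 2 correlated at 0.25 between tup1 and wild type. The values were −0.35 between ssn6 and wild type and −0.27 between tup1 and ssn6. Each rests on a single difference per genotype, so it cannot decide whether same-numbered samples share more than a number. Crossed numbers gave 323 lower and 363 higher genes against wild type and 20 lower and 5 higher against ssn6. No named gene called with all arrays changed sign under the alternatives run on named genes, while in some lists the balance of rises and falls turned, as for purine genes, with 2 rises and 4 falls with all arrays and 1 and 0 without the pair of arrays. Lists and named genes were not run with crossed numbers. Of the 277 named genes called, 161 kept the call without tup1 replicate 1 and 226 with the replicate block. Of the 688 falls, 191 kept the call without tup1 replicate 1 and 514 without tup1 replicate 2, and of the 567 rises 230 and 428. Signal under the floor limits 8 falls and 3 rises.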

Other observations

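Some gene groups moved in both directions or on 1 array. Over all genes tested 10.4% rose and 12.6% fell. The shares that rose and fell were 20.6% and 8.82% for the autophagy list and 7.14% and 17.9% for the ergosterol list. Of the remodeller and Mediator genes 4.44% fell, and of the corepressor and deacetylase genes 4.35% rose. Of 14 thiamine genes 5 rose (35.7%) and 2 fell, THI22 and THI80, the pyrophosphokinase that makes the active cofactor, which fell by 1.10 ± 0.13 (limma adjusted p = 0.00174). Of 34 autophagy genes 7 rose and 3 fell with all arrays, with medians of 0.67 on tup1 replicate 1 and 0.24 on replicate 2, and 0 rises were left without tup1 replicate 1. Of 28 ergosterol genes 5 fell and 2 rose, MVD1, the mevalonate pyrophosphate decarboxylase, falling by 1.28 ± 0.13 (adjusted p = 0.00095), and the falls numbered 2 without wild-type replicate 1 or tup1 replicate 1, 3 without either ssn6 array and 9 without wild-type replicate 2. Of 45 genes of chromatin remodellers and Mediator 2 fell and 0 rose with all arrays, the falls numbering 0 without wild-type replicate 3 or either tup1 array and 1 without wild-type replicate 1 or either ssn6 array. Of 23 other corepressor and deacetylase genes 1 rose and 0 fell.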
